A study of Macaca mulatta with 28 samples.

Results

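Collagens and laminins, the structural proteins of basement membranes and of the fibrous matrix around vessels and in the meninges, were followed in dissected brain blocks of 28 male rhesus macaques that drank ethanol voluntarily. The genes were chosen by symbol, COL followed by a number, A and a number, or LAM with a chain letter and a number from 1 to 5, and by reaching a value of 10 in 5 or more of the 28 libraries. Of the 15521 genes in the deposited table, 38 symbols matched and 38 reached that level, 31 of them in every library. The members closest to the limit were LAMB4, at 10 or more in 10 libraries, and COL8A2, in 13 libraries, and no matching gene lay outside it. They comprise 9 fibrillar collagens, 5 chains of collagen IV, 2 of collagen VI, 3 short-chain collagens, 5 FACIT collagens (which attach to the surface of fibrils), COL15A1, 2 other collagens, and 10 chains of laminin. The remaining match, COL4A3BP, is named for binding a collagen IV chain but encodes a ceramide transfer protein, and it is kept apart below. COL18A1, COL25A1, COL6A1, COL12A1, LAMA5 and LAMC3 were not analysed here.

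Collagens are trimers of chains that wind around each other. Fibrillar types I and III are made mainly by fibroblasts, in the brain those of the meninges and of the perivascular sheath, whereas collagen IV forms the network of basement membranes under endothelium, around pericytes and below the astrocyte endfeet. Laminins are cross-shaped trimers of 1 alpha, 1 beta and 1 gamma chain that bind cell surface integrins and dystroglycan, and LAMA4 is the alpha chain typical of endothelium, LAMA2 that of the parenchymal border and LAMA1 that of the outer, meningeal border. Several collagens are also made by neurons and glia, so a collagen transcript in a brain block need not come from a vessel.

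One library was made per animal from a block that contained the central nucleus of the amygdala (CeA), after perfusion of the brain with artificial cerebrospinal fluid. Every animal was induced over about 90 days to drink 4% ethanol and then had access to it for 22 h a day over 12 months, and there were no animals without ethanol among the 28. The 6 very heavy drinkers (VHD) took more than 3 g/kg a day on average and exceeded 4 g/kg on 10% of days or more. The 7 heavy drinkers (HD) reached 3 g/kg on 20% of days or more. The 5 binge drinkers (BD) reached 2 g/kg on 55% of days or more and a blood ethanol of 80 mg/dl once a year or more often, and the 10 low drinkers (LD) met none of these criteria. Below, VHD and HD together are called heavy (13 animals), and BD and LD together low (15 animals). The animals came from cohort 7a (8 animals, mean age 4.18 years at induction and 5.7 years after the access period), cohort 5 (7 animals, 5.63 and 7.15 years), cohort 7b (5 animals, 5.69 and 7.18 years) and cohort 4 (8 animals, 8.24 and 9.98 years). All 7 animals of cohort 5 were heavy drinkers, whereas cohorts 4 and 7b held 1 heavy drinker each. Animals are named by category and a number that serves only as a name.

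Libraries held between 1910514 and 25928489 reads over gene exons, and values are given as the authors' normalized reads, in which 3 reads correspond to 1.82 to 24.1 units depending on depth. The 3 shallowest libraries, BD1, LD1 and HD1, all came from cohort 4, and LD1 and HD1 stood apart in several collagens described below. Markers of vessels and fibroblasts were measured in every block, and no marker of these lists was at 0 throughout. The summed level of 13 of 14 endothelial markers ran from 6008 to 8114 in VHD, 5072 to 6809 in HD, 5435 to 6243 in BD and 5383 to 7143 in LD animals. The sum of 11 of 12 pericyte and smooth muscle markers reached from 2260 to 7534 in VHD, 2342 to 4101 in HD, 2707 to 4096 in BD and 2293 to 4704 in LD animals. That of all 14 markers of meningeal and perivascular fibroblasts was 1981 to 3999 in VHD, 1816 to 2932 in HD, 1740 to 3134 in BD and 1843 to 2927 in LD animals, and 3 markers of blood summed to at most 80.8. Blocks thus differed in how much vessel and fibroblast RNA they held, and in such bulk samples fewer cells of a type and less RNA per cell cannot be told apart.

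Per kilobase of exon, basement membrane chains led the true matrix genes together with collagen IX. COL9A2, a FACIT chain known mainly from cartilage, had a median of 533 normalized reads per kilobase over the 28 blocks, and its partner chain COL9A1 had 91.4. Laminin beta 1 (LAMB1, 153), collagen alpha-5(IV) (COL4A5, 143), laminin beta 2 (LAMB2, 135) and collagen alpha-2(IV) (COL4A2, 125) followed on the same scale. LAMA4 had 91.95, LAMC1, the gamma chain shared by most laminins, 90.5, and COL4A1 67.3. The fibril-forming chains were lower: COL1A2 had a median of 39.9, COL3A1 33.96 and COL1A1 11.2 normalized reads per kilobase. COL4A3BP, the gene that is no collagen, was highest at 547 and varied least, with a coefficient of variation of 9.03% over the 28 blocks.

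The spread over blocks differed widely between chains. LAMC1 had a coefficient of variation of 17.6%, COL9A2 of 20.5% and LAMB1 of 22.1%, whereas COL1A2 had 52.9%, COL1A1 62.0%, COL11A1 63.9% and COL10A1, a short-chain collagen of growth cartilage, 135%. The plot of levels per kilobase shows that the lowest members, LAMB4, COL8A2 and COL28A1, had medians of 1.41, 2.14 and 2.97. In the shallowest library, BD1, COL28A1 had no read, which allows a value of up to 24.1 normalized reads there, so values of the lowest members in that library are poorly determined.

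Among the fibrillar collagens, COL11A1, COL5A2 and COL5A1 had higher medians per kilobase than the collagen I and III chains, at 58.0, 54.8 and 43.1. COL5A1 and COL5A2 are chains of collagen V, which starts fibrils of collagen I, and COL5A2 varied less (coefficient of variation 23.96%) than COL5A1 (49.9%). COL5A1 ran from 141 normalized reads in LD3 to 1073 in LD1, and COL5A2 from 208 in BD1 to 567 in HD1. COL24A1, another minor fibrillar chain, had a median of 12.5 per kilobase, COL11A2 17.1 and COL2A1, the main collagen of cartilage, 3.11. The COL11A2 model holds only 5 exons over 1133 bases, so its value covers a small part of that gene. COL2A1 ran from 1.35 normalized reads in BD2 to 54.6 in VHD4 and reached 10 in 23 libraries.

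The remaining FACIT, collagen VI and short-chain members covered a wide range of reads per kilobase. COL19A1 had a median of 30.5, COL14A1, which binds to mature fibrils, 22.3, and COL21A1 3.53. COL6A2 had 46.8 and COL6A3 5.49, the COL6A3 value over a model of 8 exons and 4069 bases. COL8A1, COL10A1 and COL8A2, the short-chain collagens that form lattices, had 12.8, 3.48 and 2.14. COL15A1, which lies at the outer face of basement membranes and carries an anti-angiogenic end piece, had 9.66 and reached its highest value, 177 normalized reads, in LD1. COL26A1 had a median of 25.5 per kilobase and was highest in LD8 (221 normalized reads).

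Of the laminin chains of basement membranes, LAMA1, LAMA2, LAMA4, LAMB1, LAMB2 and LAMC1 were present in each block, and LAMA5 was not analysed here. LAMA4 ran from 362 normalized reads in HD5 to 1466 in VHD4, LAMA1 from 295 in HD5 to 1151 in VHD5, and LAMA2 from 189 in BD4 to 507 in VHD4. LAMB1 ran from 633 in BD1 to 1413 in LD8, LAMB2 from 361 in LD3 to 1344 in VHD4, and LAMC1 from 416 in LD3 to 965 in LD1. LAMA3 and LAMB3, chains of the laminin that anchors epithelia, had lower medians in normalized reads (188 and 157, against 277 for LAMA2) and were highest in different blocks. LAMA3 was highest in LD1 (702) and LAMB3 in BD3 (205 normalized reads). Per kilobase their medians were 34.5 for LAMA3 and 38.5 for LAMB3, above that of LAMA2 (28.6). LAMB4, the chain nearest the limit of the choice, was listed at 0 in BD5 and had at most 28.5 normalized reads.

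**Figure D1:**
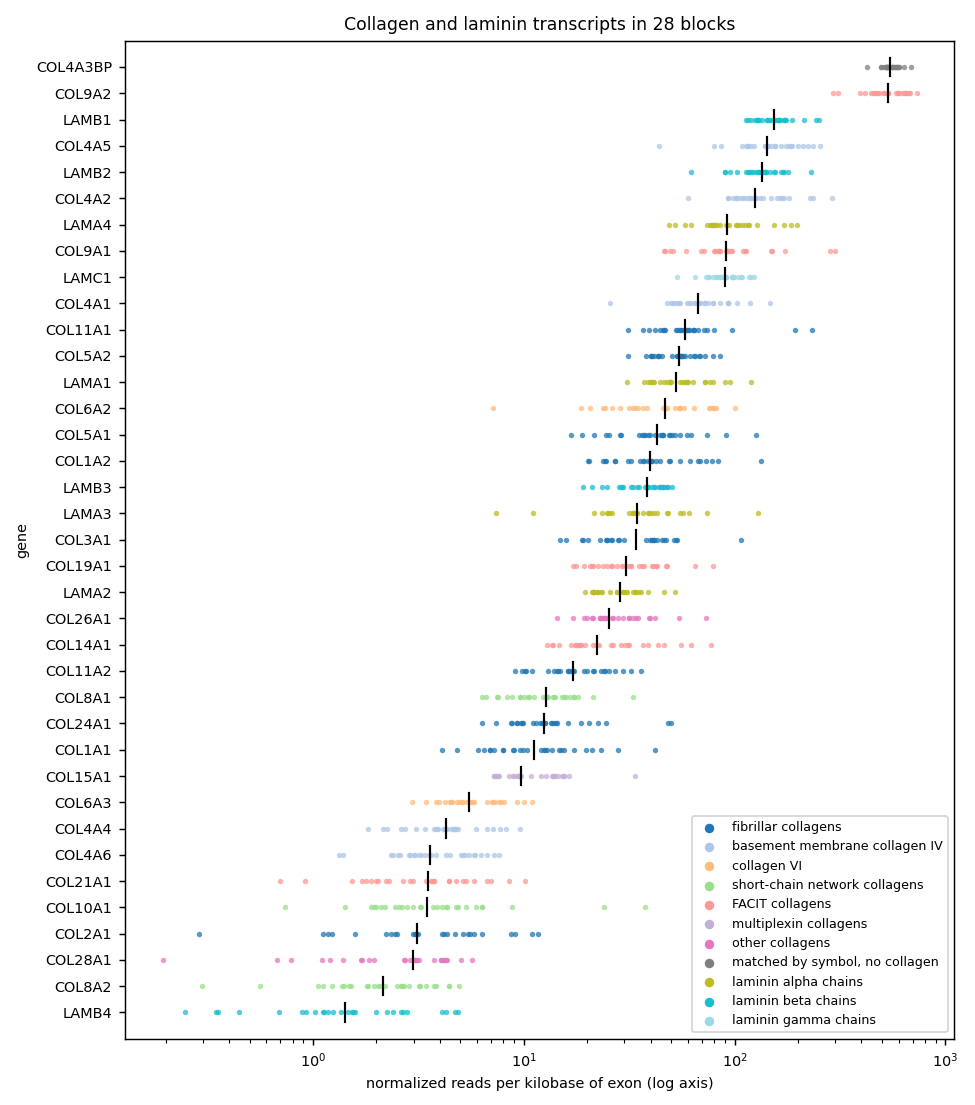
Normalized reads per kilobase of exon (log axis) for 37 of the 38 genes, ordered by their median over the 28 blocks (black bars); each point is a block, coloured by class, and values of 0 are not drawn. COL4A3BP (547) and COL9A2 (533) lie highest and LAMB4 (1.41) lowest.

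Several members are neighbours in the genome, by the coordinates of the deposited exon table, whose build is not given in the sources used here. COL4A1 and COL4A2, chains of 1 trimer, lay on chromosome 13 at 91561335 to 91715252 and 91715384 to 91915335, with 131 bases between them. COL4A6 and COL4A5 lay on chromosome X with 351 bases between them. Their levels were far apart all the same: COL4A5 exceeded COL4A6 per kilobase by 13.9-fold to 120-fold in single blocks (median 41.7-fold). COL4A2 exceeded COL4A1 by 1.40-fold to 2.69-fold per kilobase (median 1.90-fold). COL5A2 exceeded COL5A1 by a median of 1.28-fold, with a range from 0.621-fold in LD1 to 2.51-fold in LD4. COL9A2 exceeded COL9A1 by 1.69-fold in HD1 and by up to 11.4-fold in VHD2 (median 5.81-fold). LAMB1 and LAMB2, the alternative beta chains, had a ratio of 0.616 in VHD4 to 2.05 in LD3 (median 1.18). COL1A2 exceeded COL1A1, its partner in collagen I, by 2.45-fold to 7.08-fold (median 3.49-fold), whereas the COL1A1 chain is the more abundant of the pair in the collagen I protein.

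Across the 28 animals, the fibrillar chain COL1A2 varied together with COL3A1 and with the fibroblast proteoglycan decorin. Relations were computed on log2(value + 1) over the 28 animals with permutation tests of 100000 resamples, adjusted by Benjamini-Hochberg over 5 relations. COL1A2 and COL3A1 had Pearson's r = 0.81 (adjusted permutation p = 1.67e-05) and Spearman's rho = 0.81 (adjusted permutation p = 2.5e-05). COL1A2 and DCN (decorin) had r = 0.85 (adjusted permutation p = 1.67e-05) and rho = 0.84 (adjusted permutation p = 2.5e-05). The unadjusted p of each of these Pearson correlations, 1e-05, was the smallest that these permutations can give. Without the 2 animals farthest from the median of the second gene, r was 0.70 for COL1A2 with COL3A1 and 0.78 for COL1A2 with DCN. Within cohorts 7a, 5 and 4, COL1A2 and DCN had r = 0.99, 0.89 and 0.79 (exact permutation p = 9.92e-05, 0.00595 and 0.0143), and COL1A2 and COL3A1 had r = 0.68, 0.72 and 0.91 (exact permutation p = 0.0663, 0.0716 and 0.000719). Cohort 7b, with 5 animals, was too small for its own value.

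The basement membrane chains followed each other less uniformly. COL4A1 and COL4A2 had r = 0.85 over the 28 animals (adjusted permutation p = 1.67e-05) and rho = 0.73 (adjusted permutation p = 5e-05), and r was 0.73 without LD1 and BD1. This relation did not hold in every cohort: r was -0.76 in cohort 7a, 0.67 in cohort 5 and 0.96 in cohort 4 (exact permutation p = 0.0283, 0.0958 and 0.000471). In cohort 7a the values covered a narrow range, 312 to 439 normalized reads of COL4A1 and 585 to 793 of COL4A2. LAMB1 and LAMC1, which occur in the same laminin trimers, had r = 0.37 (adjusted permutation p = 0.062) and rho = 0.20 (adjusted permutation p = 0.374), a relation that did not pass the threshold; within cohorts 7a, 5 and 4 it was 0.11, -0.27 and 0.69 (exact permutation p = 0.788, 0.57 and 0.0577). COL4A1 and CLDN5, the claudin of endothelial tight junctions, had r = -0.23 (adjusted permutation p = 0.239) and rho = 0.17 (adjusted permutation p = 0.389). That value rested on LD1 and HD1, since r was 0.47 without them (permutation p = 0.0147), and within cohorts 7a, 5 and 4 it was 0.28, 0.14 and -0.64 (exact permutation p = 0.508, 0.771 and 0.0893).

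**Figure D2:**
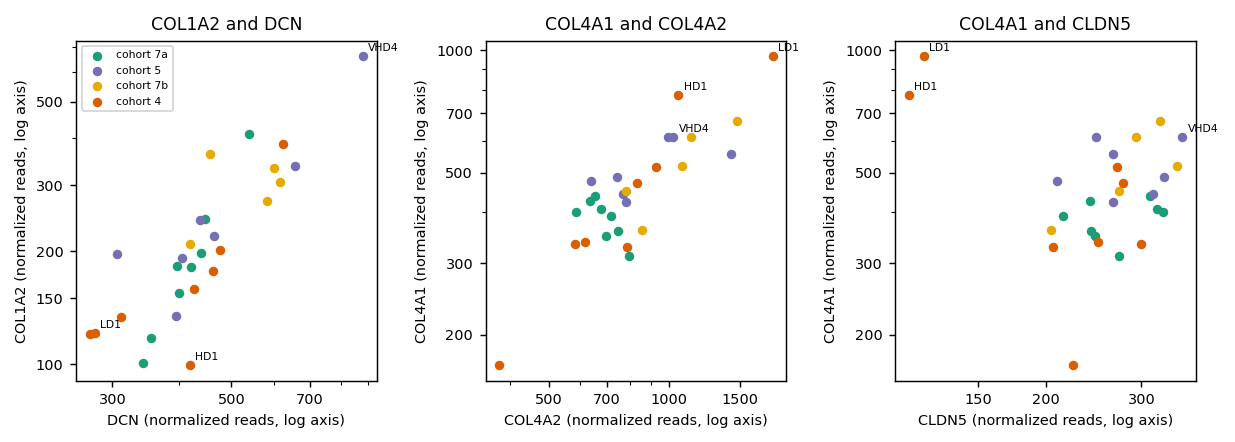
Normalized reads (log axes) of COL1A2 against DCN, COL4A1 against COL4A2 and COL4A1 against CLDN5; each point is 1 of 28 animals, coloured by cohort, with 3 animals named. COL1A2 and DCN rise together (r = 0.85), while LD1 and HD1 combine the 2 highest COL4A1 values (967 and 774) with the 2 lowest CLDN5 values (119 and 112).

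Single blocks stood out. VHD4 held the highest value of 10 of the 38 members, among them COL1A1 (248), COL1A2 (661), COL3A1 (587), COL6A2 (339), LAMA2 (507), LAMA4 (1466) and LAMB2 (1344 normalized reads). The medians over the 28 blocks were 66.2 for COL1A1, 197 for COL1A2, 186 for COL3A1, 157 for COL6A2, 277 for LAMA2, 679 for LAMA4 and 785 for LAMB2. The same block had the highest DCN (879), LUM, another fibroblast proteoglycan (157), and ACTA2, the actin of vascular smooth muscle (897 normalized reads); its sums of pericyte and smooth muscle markers (7534) and of fibroblast markers (3999) were the highest of the 28. The part of those cells in the collagen values was not tested.

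LD1 held the highest value of another 10 members and HD1 that of 4. HD7 held that of only 2, but 33 of its 38 members lay above their own median over the blocks, the most of any block. COL11A1, a fibrillar collagen that sets fibril diameter in cartilage, had 1683 in LD1 and 1398 in HD1, against 224 to 699 normalized reads in the other 26 blocks. COL9A1 had 898 and 846 in these blocks, COL24A1 314 and 325, COL10A1 123 and 79.3, LAMA3 702 and 402, and COL19A1 570 and 689 normalized reads. Fibrous collagens were not raised with them: COL1A2 had 121 in LD1 and 99.6 in HD1, the lowest value of all, and COL3A1 had 126 and 81.3. Both libraries are among the 3 shallowest, both had the lowest CLDN5 values, and their fibroblast marker sums of 1843 and 1949 were in the lower part of the range; the part of depth and of tissue content in these values was not tested.

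**Figure D3:**
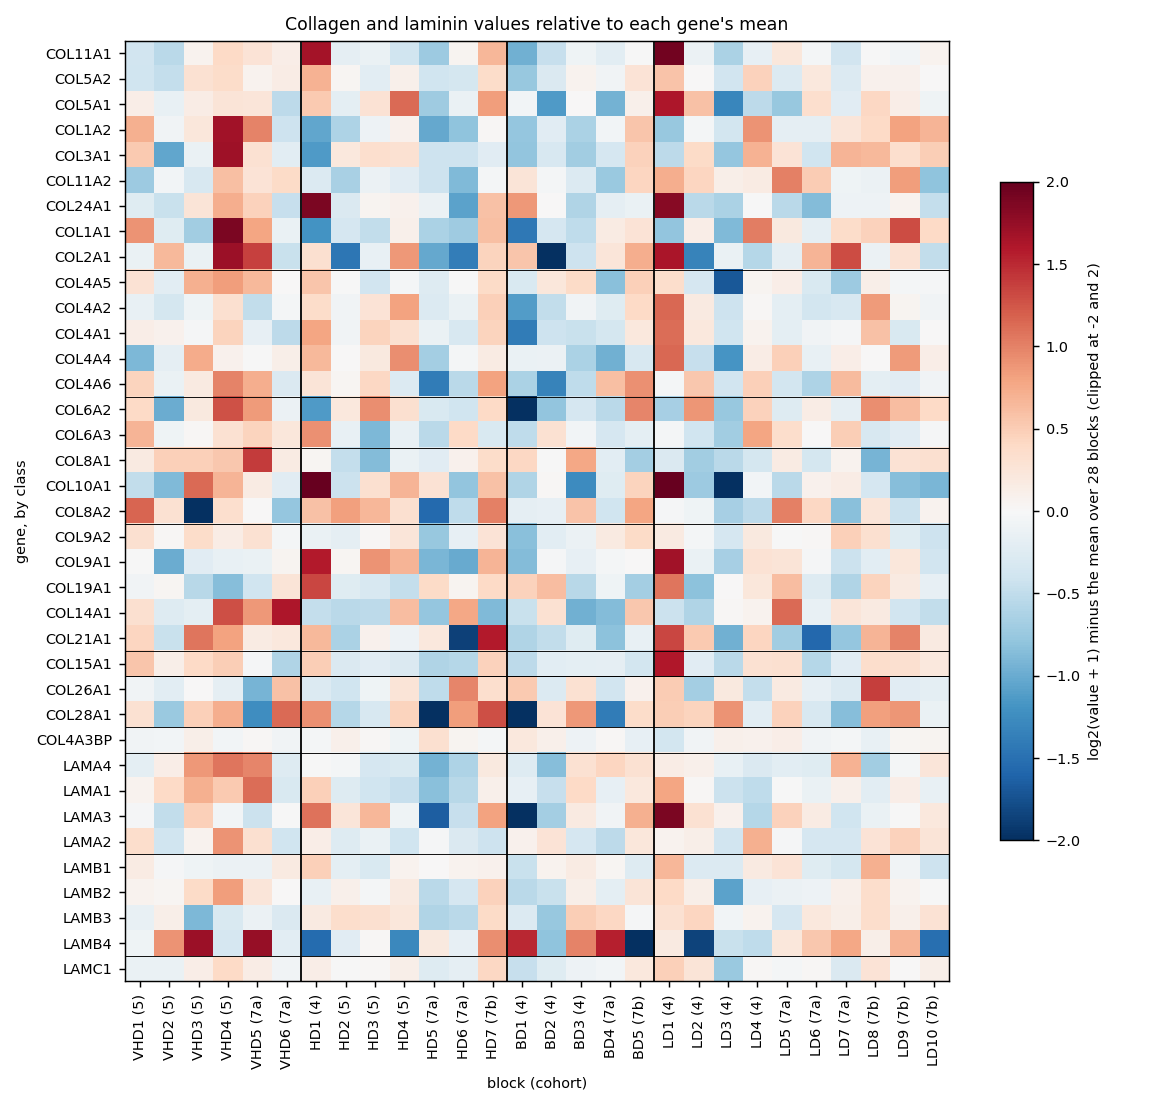
Log2(value + 1) of each of 37 genes minus its mean over the 28 blocks, with genes by class and blocks by category (VHD, HD, BD, LD from left to right, cohort in brackets); colours are clipped at -2 and 2. HD7, LD1 and VHD4 have the most genes above their own median (33, 30 and 29 of 38 members), and the deepest red cells lie in VHD4, LD1 and HD1, with different genes raised in VHD4 (COL1A1, COL1A2, COL3A1) than in LD1 and HD1 (COL11A1, COL9A1, COL24A1, COL10A1).

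The first comparison asked whether matrix transcripts differed between heavy and low drinkers. Among heavy drinkers COL4A5, the collagen IV chain whose mutations cause Alport syndrome, lay higher and COL1A2 and COL3A1 lower, but no member passed the threshold, an adjusted p under 0.05 over all genes tested, and of the 13022 genes tested 0% passed it. At an unadjusted p under 0.05, 2 of 38 members and 4.18% of all genes tested differed, near the background; both members were higher, against 1.9% of all genes higher and 2.27% lower. COL4A5 had 712 to 1659 normalized reads (median 936) in heavy and 287 to 1303 (median 922) in low drinkers, and the groups overlapped. With cohort as a term in limma, its fold was 1.43 (95% interval 1.02 to 2.03, unadjusted p = 0.0411, adjusted p = 0.998, limma), and 10 of 13 heavy animals lay above the mean of the low drinkers. The other member at an unadjusted p under 0.05 was COL21A1, a fibril-associated collagen, with a fold of 1.68 (1.01 to 2.81) at values of 2.75 to 39.8 normalized reads in heavy and 3.61 to 33.7 in low drinkers. COL24A1 (fold 1.56), COL11A1 (1.49) and COL19A1 (1.38) were the next higher members, and HD1 had the highest COL24A1, COL11A1 and COL19A1 of the heavy animals. The count at an unadjusted p under 0.05 depended on the setting. It was 0 of 38 without the 3 shallowest libraries (3.03% of all genes), where the fold of COL11A1 was 1.16, and 5 of 38 with CHAT, a gene of cholinergic neurons described below, as a covariate (8.21% of all genes). It was 8 of 38 (7.63% of all genes) with the scores of endothelial, fibroblast and choroid plexus markers as covariates, where COL24A1 had a fold of 1.86, COL3A1 of 0.705 and COL1A2 of 0.750. The adjusted p of every member stayed at or above 0.563 in these 3 fits (limma). On reads recovered from the values, edgeR and DESeq2 called 0 of 38 members in each of the 8 comparisons. At an unadjusted p under 0.05 DESeq2 had 3 of 38 members in heavy against low drinkers (4.82% of all genes), and 10 of 38 both in the cohort F test (12.7%) and in cohort 4 against 7a (10.4%).

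Of the 9 fibrillar collagens, 5 had a fold below 1 in the same comparison, the chains of collagens I and III, COL11A2 and COL2A1 (0.859). The other 4, COL24A1, COL11A1, COL5A1 (1.29) and COL5A2 (1.16), had a fold above 1. COL3A1 had 81.3 to 587 normalized reads (median 165) in heavy and 104 to 292 (median 219) in low drinkers, and its fold with cohort as a term was 0.713 (0.478 to 1.06). COL1A2 had a fold of 0.727 (0.480 to 1.10), COL11A2 of 0.800 and COL1A1 of 0.781, and among the lower laminins LAMB3, a beta chain of epithelial laminin, had one of 0.879; none passed the threshold. Over all 38 members the median log2 fold was 0.06, against 0.00 over all genes tested, and 25 of 38 members had a fold above 1, against 50% of all genes. Cohort 5, which held heavy drinkers only, adds nothing to this contrast. The median difference of log2 values between heavy and low drinkers over the 38 members was -0.03 in cohort 7a (4 against 4 animals), 0.26 in cohort 7b (1 against 4) and 0.47 in cohort 4 (1 against 7, HD1 being that 1 animal).

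Between very heavy and low drinkers the smallest p among the members was that of COL8A1. This short-chain collagen of vascular and corneal matrix had 40.7, 50.1, 50.1, 52.6, 95.5 and 40.3 normalized reads in VHD1 to VHD6, against 18.4 to 45.0 (median 28.6) in the 10 LD animals. All 6 VHD animals lay above the LD mean (54.9 ± 20.6 in VHD and 31.6 ± 9.45 in LD animals, SD, n = 6 and 10), and 4 of 6 lay above the highest LD animal. The fold was 2.13 (95% interval 1.36 to 3.33, unadjusted p = 0.00185, adjusted p = 0.522, limma with cohort as a term), so the difference did not pass the threshold over all genes. COL4A5 followed with 805 to 1659 normalized reads (median 1301) in VHD and 287 to 1185 (median 915) in LD animals and a fold of 1.91 (1.23 to 2.97, adjusted p = 0.531, limma). The laminin chain LAMA1 had 426 to 1151 normalized reads (median 728) in VHD and 373 to 913 (median 505) in LD animals, with a fold of 1.57 (1.06 to 2.31). COL21A1 had a fold of 2.15 (1.14 to 4.07), a log2 fold of 1.11 in the fit with the cohort term and of 0.35 without that term, at a median of 16.1 normalized reads in VHD and 15.9 in LD animals.

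These were the 4 of 38 members with an unadjusted p under 0.05, against 8.57% of all genes tested (4.2% higher and 4.37% lower), and 0 of 38 members as well as 0% of all genes passed the adjusted threshold. COL24A1, the fifth higher member, had a fold of 1.63 (0.883 to 3.02). Among the lower members of smallest p were LAMB3 (fold 0.717, 0.505 to 1.02), COL3A1 (0.739), COL4A2 (0.896) and COL8A2 (0.816). The median log2 fold of the members was 0.18, against 0.01 over all genes tested, and 25 of 38 had a fold above 1, against 52.5% of all genes. VHD animals occurred in cohorts 5 and 7a, and LD animals in cohorts 4, 7a and 7b, so that only cohort 7a held both (2 and 3 animals). There the mean difference of log2 values between VHD and LD animals was 0.82 for COL8A1, 0.63 for COL4A5, 0.41 for LAMA1 and 1.19 for COL21A1. The COL8A1 and LAMA1 differences rested mostly on VHD5. COL8A1 had 95.5 in VHD5 and 40.3 in VHD6, against 27.9 to 40.0 normalized reads in LD5 to LD7. LAMA1 had 1151 and 426, against 481 to 569. COL4A5 had 1461 and 936, against 564 to 1018, and COL21A1 had 14.2 and 14.8, against 3.61 to 7.44 normalized reads.

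The blocks with the most LAMA4 and LAMA1 among VHD animals also held the most CHAT, the enzyme of cholinergic neurons, a gene chosen after its values were seen. CHAT had 1687, 1566 and 1450 normalized reads in VHD3, VHD4 and VHD5, against 0.82 to 376 in the other 3 VHD animals and 2.88 to 826 in LD animals. LAMA4 had 609, 761, 1270, 1466, 1371 and 585 normalized reads in VHD1 to VHD6, against 432 to 1132 (median 655) in LD animals, whose highest animal, LD7, also had the highest CHAT of the LD group. In LAMA1 the highest LD animal was instead LD1 (913 normalized reads, at a CHAT of 123), and LD7 had 569. LAMA4 averaged 1010.3 ± 402 in VHD and 698 ± 191 normalized reads in LD animals (SD, n = 6 and 10). In the fit with the endothelial, fibroblast and choroid plexus scores as covariates, the VHD to LD fold of LAMA4 was 1.35 (unadjusted p = 0.197, adjusted p = 0.643, limma). With log2 CHAT as a covariate, the VHD to LD fold was 2.11 for COL8A1 (adjusted p = 0.343, limma), 1.90 for COL4A5 and 1.54 for LAMA1, and 0 members passed the threshold. The summed oligodendrocyte markers, 62729 to 120432 in VHD and 41257 to 89310 in LD animals, also had the higher median in VHD animals. So did the summed markers of astrocytes (medians 236699 in VHD and 214588 in LD animals), microglia (4290.0 and 3580.3) and endothelial cells (6994 and 6111), with overlapping ranges. The sums of fibroblasts (2844 and 2456) and of pericytes and smooth muscle (3864 and 3432) also had the higher median in VHD animals. The same held for cortical and basolateral excitatory neurons (2076 and 1293) and oligodendrocyte precursors (6091 and 5820), with overlapping ranges. Those of choroid plexus (1532 and 1790), ependyma (191 and 213), neurons (79663 and 85883), GABAergic and striatal neurons (17468 and 28710) and blood (0.412 and 5.54) had the lower. The part of oligodendrocytes and their precursors, astrocytes, microglia, excitatory neurons, pericytes and smooth muscle in the values was not tested. With the endothelial, fibroblast and choroid plexus scores as covariates, the VHD to LD fold was 2.11 for COL8A1, 1.68 for COL4A5, 1.80 for LAMA1 and 0.497 for COL3A1 (unadjusted p = 2.43e-05, adjusted p = 0.317, limma); 5 of 38 members had an unadjusted p under 0.05, against 9.17% of all genes.

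**Figure D4:**
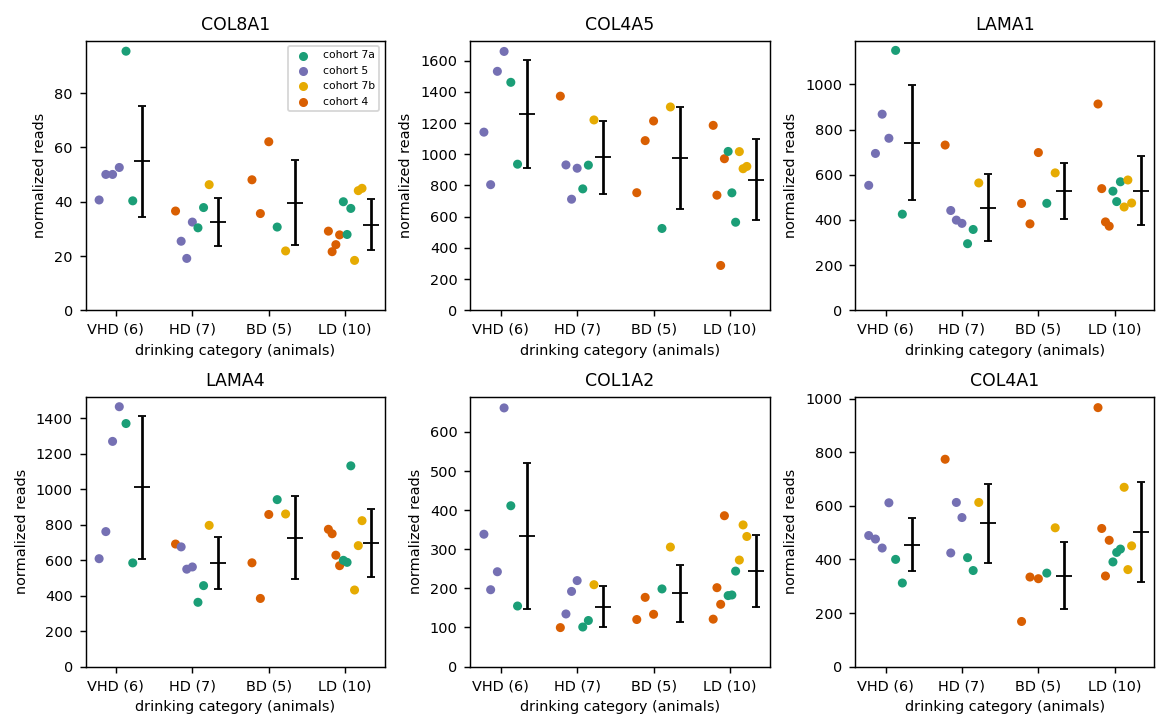
Normalized reads of 6 members by drinking category (VHD, HD, BD, LD, with the number of animals); each point is an animal, coloured by cohort, and the bar is the mean ± SD. All 6 VHD animals lie above the LD mean in COL8A1, and the ranges of VHD and LD animals overlap in each of the 6 genes.

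In the HD category, values of fibrous collagen lay below those of low drinkers without passing the threshold. COL1A2 had 99.6 to 220 normalized reads (median 134) in the 7 HD animals and 121 to 386 (median 223) in the 10 LD animals; all 7 HD animals lay below the LD mean, 3 of them below the lowest LD animal. The fold was 0.573 (0.393 to 0.837, unadjusted p = 0.00566, adjusted p = 0.995, limma). COL3A1 had 81.3 to 227 normalized reads (median 154) in HD and 105 to 292 (median 232) in LD animals, with a fold of 0.629 (0.407 to 0.972), and COL1A1 had 28.5 to 102 (median 47.0) in HD and 35.7 to 166 (median 81.6) in LD animals, with a fold of 0.620. COL11A2 (0.680) and COL9A2 (0.864) were the next lower members, and COL4A5 (1.38), COL19A1 (1.38), COL24A1 (1.53), COL10A1 (1.83) and COL11A1 (1.33) the higher ones. At an unadjusted p under 0.05, 2 of 38 members, both lower, and 3.96% of all genes tested differed (1.41% higher and 2.56% lower), and 0% of either passed the adjusted threshold. A fold above 1 was found in 20 of 38 members and 47.9% of all genes. The VHD, HD and BD comparisons share the 10 LD animals, so their values are given side by side: COL1A2 averaged 334 ± 186 in VHD, 153 ± 52.1 in HD, 187 ± 73.5 in BD and 244 ± 90.9 normalized reads in LD animals (SD, n = 6, 7, 5 and 10). The summed fibroblast markers, 1816 to 2932 in HD and 1843 to 2927 in LD animals, covered nearly the same range, with medians of 2268 and 2456. Within cohort 7a they were 1816 and 1987 in HD5 and HD6, against 2082 to 2526 in LD animals. In cohort 4 HD1 had 1949, against 1843 to 2890, and in cohort 7b HD7 had 2609, against 2540 to 2927. The sums of pericytes and smooth muscle, 2342 to 4101 in HD and 2293 to 4704 in LD animals, also covered nearly the same range. In the fit with the cohort term, however, 11 of the 11 pericyte and smooth muscle markers had a fold below 1 in HD against LD animals, with a median log2 fold of -0.46, and 2 of them had an unadjusted p under 0.05; none was called. Their part in the collagen values was not tested. With the scores of endothelial, fibroblast and choroid plexus markers as covariates, the fold was 0.690 for COL1A2 and 0.774 for COL3A1, and 5 of 38 members had an unadjusted p under 0.05, against 4.88% of all genes.

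Binge drinkers had folds below 1 in most members against low drinkers. Of the 38 members, 31 had a fold below 1, and the median log2 fold was -0.20, against -0.01 over all genes tested, of which 46.0% had a fold above 1. COL4A1 had 168, 334, 328, 349 and 518 normalized reads in BD1 to BD5, against 338 to 967 (median 445) in LD animals, and 3 of 5 BD animals lay below the lowest LD animal. Its fold was 0.661 (0.480 to 0.909, unadjusted p = 0.0129, adjusted p = 1, limma). COL4A2 (fold 0.762), COL15A1, a collagen of the outer vessel wall (0.709), COL4A4 (0.685) and COL6A2 (0.645) were also lower, and COL8A1 (1.22), COL4A5 (1.18), COL4A3BP (1.03), COL8A2 (1.17) and LAMB4 (1.203) were the higher members of smallest p. At an unadjusted p under 0.05, 1 of 38 members and 3.52% of all genes tested differed (1.37% higher and 2.14% lower), and 0% passed the adjusted threshold. The size depended on the shallow libraries: without BD1, LD1 and HD1 the median log2 fold was -0.05, 23 of 38 members had a fold below 1 and the COL4A1 fold was 0.862. Without BD1 alone 32 of 38 had a fold below 1 and the COL4A1 fold was 0.773.

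**Figure D5:**
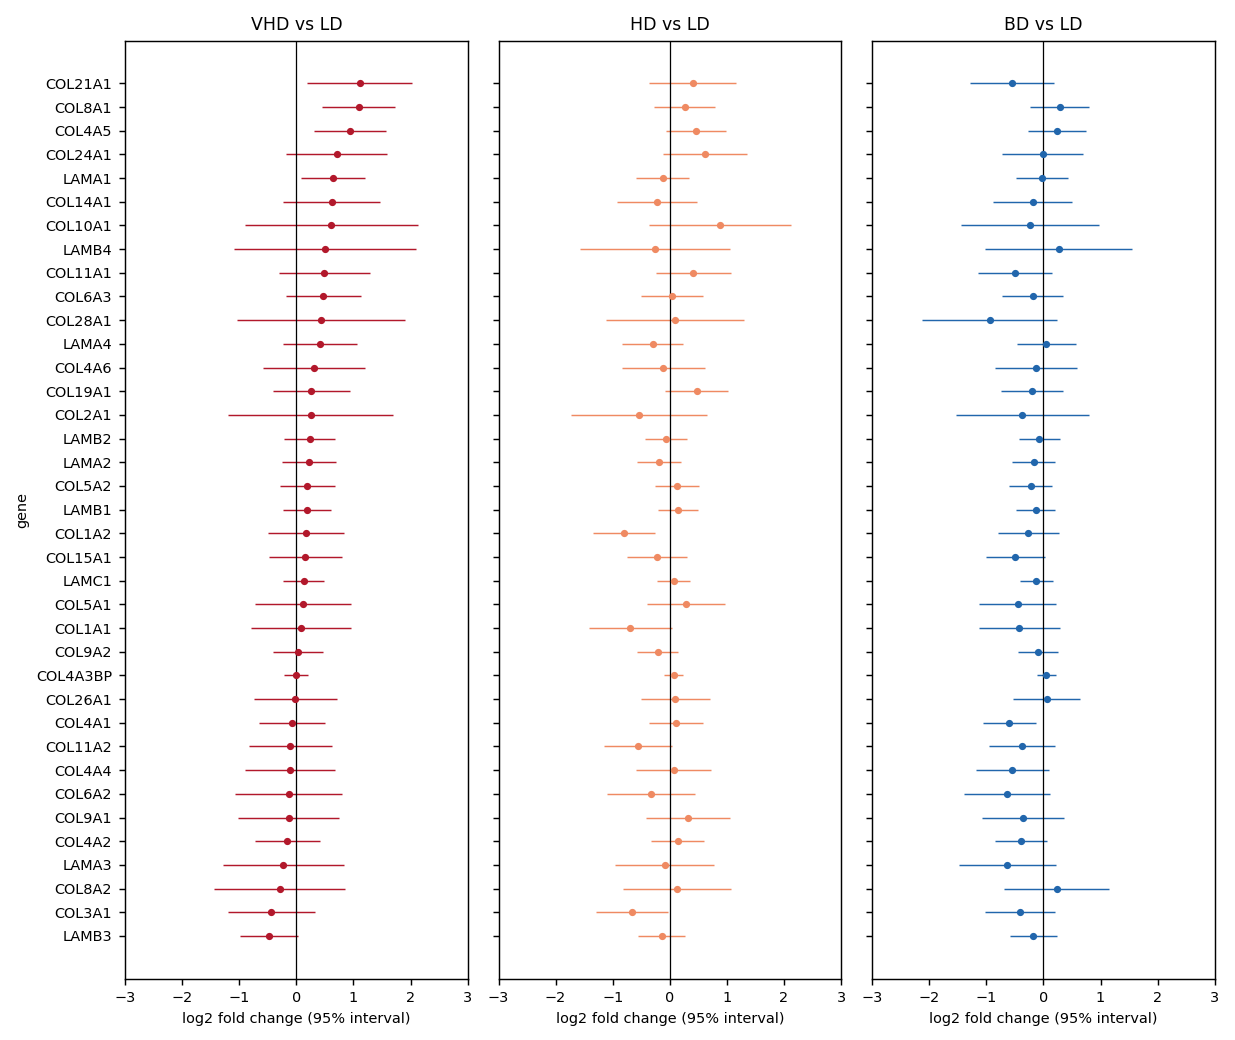
Log2 fold change with its 95% interval for 37 of the 38 genes in VHD, HD and BD animals, each against LD animals, from the limma fit with cohort as a term; genes are ordered by the VHD value. The COL8A1, COL4A5, COL21A1 and LAMA1 intervals exclude 0 in VHD, those of COL1A2 and COL3A1 in HD and that of COL4A1 in BD animals, all before adjustment over genes.

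With the category taken as a number from 1 for LD to 4 for VHD, COL4A5 (fold 1.22 per step, 1.07 to 1.40, unadjusted p = 0.00545, adjusted p = 0.950, limma) and COL8A1 (1.24 per step, 1.07 to 1.44) had the smallest p. COL21A1 (1.21), COL24A1 (1.18) and LAMA1 (1.10) followed among the higher members, and LAMB3 (0.907), COL3A1 (0.869), COL11A2 (0.928) and COL6A2 (0.930) among the lower. At an unadjusted p under 0.05, 2 of 38 members and 4.85% of all genes tested had a trend (2.17% upward and 2.68% downward), 22 of 38 members had a fold above 1 per step, against 51.1% of all genes, and 0% of either passed the adjusted threshold. With the 3 marker scores as covariates 6 of 38 members and 6.55% of all genes had an unadjusted p under 0.05. Mean values did not follow the steps for COL8A1, COL4A2, LAMB1, LAMC1, LAMB2 and COL6A3. COL8A1 averaged 54.9 ± 20.6 in VHD, 32.6 ± 8.84 in HD, 39.7 ± 15.7 in BD and 31.6 ± 9.45 normalized reads in LD animals. COL4A2 averaged 758 ± 153 in VHD, 974 ± 265 in HD, 702 ± 258 in BD and 931 ± 398 in LD animals. LAMB1 averaged 864 ± 81.8 in VHD, 892 ± 159 in HD, 821 ± 139 in BD and 909 ± 284, LAMC1 729.9 ± 109, 720.5 ± 114, 643 ± 112 and 717 ± 151, LAMB2 926 ± 222, 749 ± 173, 691 ± 165 and 757 ± 175, and COL6A3 28.5 ± 5.76, 23.4 ± 11.1, 21.1 ± 4.94 and 24.1 ± 8.13 in the same order of categories. The LAMB1 and LAMC1 means differed between categories by less than the SD among LD animals. All 6 VHD animals had LAMB2 above the LD mean, VHD6 (759) only just, and LD3 (361) was the lowest LD animal. Without VHD4 the LAMB2 fold in VHD against LD animals was 1.13 (unadjusted p = 0.420, adjusted p = 0.901, limma).

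Cohorts were compared with category as a term; each cohort has 1 mean age in the labels, so age and other differences between cohorts cannot be told apart. In the F test over the 4 cohorts, 5 of 38 members and 9.41% of all genes tested differed at an unadjusted p under 0.05, and 0% passed the adjusted threshold. Among these members were COL21A1 (unadjusted p = 0.00183, adjusted p = 0.330, limma), COL1A2, COL6A2 and COL1A1. COL1A2 averaged 199 ± 96.9 in cohort 7a, 284 ± 178 in cohort 5, 296 ± 58.9 in cohort 7b and 175 ± 91.5 normalized reads in cohort 4. COL6A2, a chain of the beaded filaments next to basement membranes, averaged 136 ± 50.5 in cohort 7a, 193 ± 85.9 in cohort 5, 225 ± 43.7 in cohort 7b and 112 ± 76.1 in cohort 4. The 3 shallowest libraries, all from cohort 4, had COL1A2 values of 99.6 to 121. Without these 3 libraries, 7 of 38 members and 10.9% of all genes tested had an unadjusted p under 0.05 in the F test (limma).

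Between the oldest and the youngest cohort, COL21A1 had 6.05 to 33.7 normalized reads (median 13.96) in cohort 4 and 2.75 to 14.8 (median 7.24) in cohort 7a, and 4 of 8 cohort 4 animals lay above all cohort 7a animals. Its fold was 2.28 (1.37 to 3.79, unadjusted p = 0.00258, adjusted p = 0.353, limma), at a level near that of a few reads in the shallow libraries. COL24A1 had a fold of 1.95 (1.196 to 3.19), which was 1.11 without the 3 shallowest libraries, and COL15A1 one of 1.44 (1.01 to 2.05). LAMA2 (1.28) and COL19A1 (1.39) were the next higher members, and COL14A1 (0.709), COL3A1 (0.745), LAMB4 (0.550), COL1A1 (0.736) and COL6A2 (0.746) the lower ones. At an unadjusted p under 0.05, 3 of 38 members, all higher, and 9.39% of all genes tested differed (4.84% higher and 4.55% lower), and 0% passed the adjusted threshold. That count depended on the fit. It was 8 of 38 with edgeR (10.1% of all genes), 10 with DESeq2 (10.4%) and 7 with the 3 marker scores as covariates (13.4%). Without the 3 shallowest libraries it was 3 of 38 (3.99% of all genes). The median log2 fold of the members was 0.17, with 27 of 38 above a fold of 1 against 48.5% of all genes, and -0.01 without the 3 shallowest libraries.

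The interaction of heavy drinking with cohort asked whether the difference varied between cohorts 4, 7a and 7b. An interaction at an unadjusted p under 0.05 was found in 1 of 38 members and 6.1% of all genes tested, and 0% of either passed the adjusted threshold. The member was COL9A1 (unadjusted p = 0.0265, adjusted p = 0.814, limma), whose log2 difference between heavy and low drinkers was -0.44 in cohort 7a, 0.77 in cohort 7b and 1.58 in cohort 4. COL11A1, COL24A1, LAMA3 and COL10A1 came next, with adjusted p of 0.815 to 0.853 (limma). The cohort 4 difference is that of the single animal HD1. Without LD1, the other block in which these collagens were high, the interaction of COL11A1 had an adjusted p of 0.0382 (limma), and 77 genes in all passed the threshold.

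Relative exon use was testable in 22 members, with 479 exons of at least 10 normalized reads in at least 5 libraries and at least 3 such exons per gene. In heavy against low drinkers 0 of 22 members were called, against 0.0917% of the 9817 genes tested, and none had an unadjusted p under 0.05, against 1.73% of all genes. In cohort 4 against 7a 0 of 22 were called, against 0.122%, and again none had an unadjusted p under 0.05, against 2.94%. The smallest values were those of COL3A1 (4 exons, p = 0.0513) and LAMA2 (6 exons, p = 0.190) between cohorts and of COL1A2 (5 exons, p = 0.403) between heavy and low drinkers, each with an adjusted p of 1 in limma's diffSplice.

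Among single exons, 0 of the members' 479 exons passed an adjusted p under 0.05 in heavy against low drinkers, against 0.112% of all 109212 exons tested. In cohort 4 against 7a 1 of 479 did, against 0.141% of all exons. It was an exon of LAMB1 on chromosome 7, 133058923 to 133058996, 74 bases long, named because of its value. It held 0 to 6 normalized reads (median 2.50) in the 8 animals of cohort 4 and 3 to 11 (median 7.00) in the 8 animals of cohort 7a, at LAMB1 gene values of 633 to 1362 in cohort 4 and 671 to 1045 normalized reads in cohort 7a. The groups overlapped, and the log2 difference relative to the other LAMB1 exons was -1.47 (adjusted p = 0.00836 over exons, limma). These counts are near the limit of detection: without the 3 shallowest libraries, all of cohort 4, the adjusted p was 0.134 (log2 -1.21), and with a pseudocount of 8 it was 0.893. The LAMB1 gene as a whole had an adjusted p of 1.

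Genes that make, bind or degrade these proteins were taken from 4 lists. None of them passed the adjusted threshold in any of the 8 comparisons. In very heavy against low drinkers, 17 of 18 collagen and laminin receptors had a fold above 1, against 52.5% of all genes, with a median log2 fold of 0.34, and 4 had an unadjusted p under 0.05, which 8.57% of all genes had. CD44, a matrix receptor best known for binding hyaluronan, had a fold of 2.96 (1.60 to 5.46, adjusted p = 0.522, limma), and ITGA6, the alpha subunit of laminin-binding integrins, one of 1.28 (1.08 to 1.51). SGCD, a sarcoglycan, had a fold of 1.29. Of 10 other basement membrane genes, 8 had a fold above 1, led by HSPG2 (perlecan, fold 1.50, 1.03 to 2.18), and 1 had an unadjusted p under 0.05. Of 23 genes of collagen processing, 17 had a fold above 1, and GLT25D2, a collagen galactosyltransferase, had the smallest p, with a fold of 1.52 (1.23 to 1.88, adjusted p = 0.522, limma). Of 15 genes of matrix degradation, 11 had a fold above 1, led by the inhibitor TIMP4 (1.46).

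In heavy against low drinkers the same lists were compared. Of all genes tested, 50% had a fold above 1 and 4.18% an unadjusted p under 0.05. Of the receptors, 14 of 18 had a fold above 1 and 2 had an unadjusted p under 0.05, SGCE (fold 0.857) and ITGA6 (1.17). Of the processing genes 10 of 23 had a fold above 1, and GLT25D2 (1.36), the hydroxylase PLOD2 (1.18) and the lysyl oxidase LOXL4 (2.20) had the smallest p. Of the other basement membrane genes 4 of 10 and of the degradation genes 7 of 15 had a fold above 1, with MMP16, a membrane-bound metalloproteinase, at 1.19. No replicate libraries were made per animal, so p-values measure the spread between animals, blocks and libraries together.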

How the data were processed

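Total RNA of 28 CeA-containing blocks was sequenced as stranded, ribosomal RNA-depleted libraries, per the labels' protocols. CASAVA, FastQC, STAR 2.3.0e and edgeR are named in the submitters' processing notes, without role or order; no source used here gives the genome build. In the deposited gene table the unit is a signal, read numbers scaled by 1 upper-quartile factor per library: 100% of values, judged by their smallest step, came out as whole reads to within 0.02. The deposited exon table holds a score, the same quantity rounded to whole numbers. Of 30 columns, 2 were not used here. Genes that reached 10 in 5 or more libraries (13022) were tested on log2(value + 1) with limma 3.58.1 (trend, cohort or category as a term, two-sided, Benjamini-Hochberg, threshold 0.05); folds are on that scale and understate changes of low genes. edgeR 4.0.16 and DESeq2 1.42.0 were run on recovered reads, and exon use was tested with diffSplice. The floor of 3 reads covers counting error only. In simulated counts for 13022 genes, the heavy against low test called 56% of 50 genes changed 1.5-fold, 90% of 50 changed 2-fold and 96% of 50 changed 4-fold. The exon test called 94.5% of 200 changed among 2000 genes. In each of these 200 genes the most read exon was changed 4-fold, at a fixed dispersion. Weaker changes and less read exons were not simulated, and neither simulation held differences between cohorts.

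The 38 genes, their classes and the lists were chosen with earlier results of these data known. Values are given for COL1A1, COL1A2, COL3A1, COL4A1, COL4A2, COL6A3, LAMA2, LAMA4, LAMB1, LAMB2 and LAMC1 whatever their p; in each comparison the 5 higher and 5 lower members of smallest p are named, in F tests the 5 of smallest p, and of each list up to 3 genes; 1 member is counted among the 38 but not reported here. Alternatives were other pseudocounts, filters, scalings, tools and covariates, and leaving out libraries.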

Additional observations from a re-analysis of the deposited data

Results flagged for a closer look

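Each of 37 members was examined in each of the 4 categories, 148 sets of animals, for a highest or lowest animal whose gap to the next one, as a share of the whole range on the log2(value + 1) scale, exceeded Dixon's critical value for the number of animals; chance flags about 1 set in 20. A single animal stood apart in 13 sets, and 7 of these were LD1 among low drinkers. LD1 was highest in COL10A1 (123 normalized reads, the next 14.1, share 0.587), COL11A1 (1683, next 517, share 0.664), COL15A1 (177, next 73.6, share 0.581), COL24A1 (314, next 92.0, share 0.654), COL9A1 (898, next 341, share 0.597), LAMA1 (913, next 577, share 0.513) and LAMA3 (702, next 261, share 0.583). LD5 was highest in COL14A1 (360, next 195, share 0.511). LD3 was lowest in COL4A5 (287, next 564, share 0.476) and LAMB2 (361, next 675, share 0.618). VHD5 was highest in COL8A1 among very heavy drinkers (95.5, next 52.6, share 0.693). COL9A1 was lowest in VHD2 (140, next 239, share 0.729) and in BD1 (152, next 251, share 0.814).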

How the results depend on the processing

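In the 8 gene comparisons, 0 of 38 members were called in every setting tried, by limma, edgeR or DESeq2, except the interaction without LD1 (1 member, COL11A1, adjusted p = 0.0382). Over all genes, DESeq2 on recovered reads called 1 gene in heavy against low drinkers, 4 in VHD against LD, 1 in HD against LD, 19 in the cohort F test, 1 in cohort 4 against 7a and 1 in the interaction, where limma called 0. Age in place of cohort gave 1 gene in HD against LD, and no filter gave 26 in the interaction. CHAT as a covariate, chosen after the data were seen, gave 1 gene in VHD against LD and 1 in the trend. Leaving out each library gave 0 to 1 genes in VHD against LD, 0 to 1 in HD against LD, 0 to 40 in the cohort F test and 0 to 11 in cohort 4 against 7a (both highest without LD2), and 0 to 77 in the interaction (77 without LD1), of which 0 to 1 were members. Exon use over all genes gave 9 calls in heavy against low drinkers, 4 with a pseudocount of 8 and 6 to 16 without single libraries (16 without BD1); in cohort 4 against 7a it gave 12, 7 with a pseudocount of 8, 6 with a filter of 50, 19 without the 3 shallowest libraries and 6 to 22 without single libraries (22 without LD3). The single LAMB1 exon passed without 25 of 28 libraries, and did not without LD4, LD6 or LD7.

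Without the 3 shallowest libraries r for COL4A1 with CLDN5 was 0.43 (adjusted permutation p = 0.0412), against -0.23 with all; without single libraries it ran from -0.34 to 0.024, positive without LD1 alone. LAMB1 with LAMC1 ran from 0.26 to 0.42 and passed the threshold without LD2, VHD4, LD10 or BD5. COL4A1 with COL4A2 (0.81 to 0.87), COL1A2 with COL3A1 (0.74 to 0.84) and COL1A2 with DCN (0.80 to 0.88) passed without each library.

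Among named members, none of them called, log2 folds turned round without the cohort term for COL19A1 in heavy against low (-0.063), COL3A1 in VHD against LD (0.0075) and COL6A2 in the trend (0.044), in cohort 7a alone for COL4A2 in VHD against LD (0.027), with 3 marker scores as covariates for COL8A2 in BD against LD (-0.033), and without the 3 shallowest libraries for COL4A3BP (-0.053) and LAMB4 (-0.060) in BD against LD and COL6A2 in cohort 4 against 7a (0.087). Without single libraries COL8A2 in VHD against LD ran from -0.56 to 0.026, COL4A3BP in BD against LD from -0.0064 to 0.094 and LAMB4 from -0.12 to 1.31. The cause of these changes was not tested. Under settings that leave out no single library, 838 other values were counted as unchanged, and 8 turned round. For a fold, unchanged meant the same direction and call, and for an F test the same call. For the median log2 fold of the members it meant a shift below the typical SD between blocks of a category. Such a median could change sign, as in cohort 4 against 7a without the 3 shallowest libraries. The adjusted p of COL8A1 in VHD against LD ran from 0.125 to 0.997 over its alternatives.

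No paired analysis was possible because each animal belonged to 1 category and gave 1 block. In BD1 3 reads correspond to 24.1 normalized reads, so values of LAMB4, COL8A2, COL28A1, COL10A1 and COL21A1 in that library rest on few reads. In LD1 and HD1 3 reads correspond to 6.73 and 6.10 normalized reads. Their LAMB4 values of 8.98 and 2.03 rest on few reads as well, whereas COL10A1 had 123 and 79.3 there. The blocks hold several regions and cell types, age and other cohort differences cannot be told apart, and cohorts 4 and 7b hold 1 heavy drinker each.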
